A study of Mus musculus with 27 samples.

Results

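Expression of 9 regulators of the embryonic kidney and its duct was followed across a series in which mouse embryonic stem cells were differentiated towards gonadal progenitors and Sertoli-like cells. The 9 genes, *Pax2*, *Pax8*, *Lhx1*, *Osr1*, *Sall1*, *Six2*, *Eya1*, *Gdnf* and *Ret*, were chosen by symbol and matched to Ensembl identifiers, and all 9 were found among the 48795 genes of each file. Bulk RNA sequencing covered 27 libraries in 9 groups of 3. All cells came from 1 clone (number 7) of XY cells with the genotype Tesco-CFP; R26-rtTA on the strain background F1:C57BL/6 x CBA. The Tesco-CFP reporter marks Sertoli cell fate, and R26-rtTA allows doxycycline to switch on a transgene.

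ESC were the starting embryonic stem cells. EpiSC were grown for 60 hours in activin A at 20 ng/ml and bFGF at 12 ng/ml. M, early mesoderm, was made in 36 hours with bFGF at 20 ng/ml, BMP4 at 10 ng/ml and the PI3 kinase inhibitor LY294002 at 10 μM. The 5 intermediate mesoderm (IM) media shared bFGF at 5 ng/ml and BMP at 20 ng/ml. IM1 contained nothing else, whereas IM2 to IM5 also held retinoic acid (RA) at 100 nM. IM2 and IM5 held Activin A at 10 ng/ml, and IM4 and IM5 held CHIR99021, an activator of Wnt signalling through GSK3 inhibition, at 0.3 μM. The iSLC group held IM3 cells carrying doxycycline-inducible *Nr5a1* and *Dmrt1* lentiviruses, sorted for the CFP reporter. After infection these cells were kept in a Sertoli medium that held Activin A among other factors. The replicates share 1 clone, so p-values measure the spread between these cultures.

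The kidney arises from intermediate mesoderm. *Osr1* is an early transcription factor of this tissue, *Pax2*, *Pax8* and *Lhx1* act in the nephric duct and its precursors, and *Sall1*, *Six2* and *Eya1* act in the metanephric mesenchyme that forms nephrons. That mesenchyme secretes the ligand GDNF, which binds the receptor tyrosine kinase RET on the duct and drives outgrowth of the ureteric bud. None of these genes is restricted to the kidney, as *Lhx1* and *Sall1* are also used in the early embryo.

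Promoter sequence from RefSeq (GRCm38.p6) was at hand for 6 of the 9 genes, *Pax2*, *Pax8*, *Lhx1*, *Sall1*, *Six2* and *Gdnf*. The 250 bases before a start site are printed for *Lhx1*, *Six2* and *Gdnf*, since *Lhx1* and *Six2* were called higher in IM2 than in IM3, and *Gdnf*, which missed the minimum of 100 reads, had a log2 difference of 2.98. They are *Lhx1* at chr11:84525535-84525784 on the minus strand, *Six2* at chr17:85688255-85688504 on the minus strand and the more upstream of 2 *Gdnf* start sites at chr15:7809798-7810047 on the plus strand. Capitals mark CAGAC, the letters of a SMAD element that activin signalling uses, and AGGTCA, a half-site of the retinoid receptors, each searched on both strands.
Lhx1: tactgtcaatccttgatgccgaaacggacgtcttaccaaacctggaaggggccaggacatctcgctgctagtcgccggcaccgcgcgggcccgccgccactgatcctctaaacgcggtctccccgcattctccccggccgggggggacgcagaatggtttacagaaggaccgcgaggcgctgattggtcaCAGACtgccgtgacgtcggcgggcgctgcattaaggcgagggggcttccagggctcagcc
Six2: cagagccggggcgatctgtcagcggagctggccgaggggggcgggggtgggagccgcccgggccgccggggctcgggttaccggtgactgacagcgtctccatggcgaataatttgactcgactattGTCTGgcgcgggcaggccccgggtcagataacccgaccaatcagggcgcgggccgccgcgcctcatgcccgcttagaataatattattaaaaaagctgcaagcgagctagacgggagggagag
Gdnf: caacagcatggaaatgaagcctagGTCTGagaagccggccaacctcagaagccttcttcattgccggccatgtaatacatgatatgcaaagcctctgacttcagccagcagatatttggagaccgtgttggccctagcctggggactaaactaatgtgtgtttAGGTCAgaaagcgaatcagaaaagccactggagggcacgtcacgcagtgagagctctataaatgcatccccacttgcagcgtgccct
CAGAC was present before a start site of all 6 genes, *Sall1* with its log2 differences of 0.14 (IM2 against IM3) and 0.06 (IM5 against IM4) included. These genes have 11 windows between them, and other windows of *Pax2*, *Sall1* and *Gdnf* lacked CAGAC. The second *Gdnf* window lacked AGGTCA too. CAGAC lay at position -60 from the start of *Lhx1*, at -123 in *Six2* and at -226 in *Gdnf*. Of all 32851 promoter windows of the same length, 42.2% held it, a share of windows that cannot be set against a count of genes. AGGTCA occurred in *Gdnf* alone of the 6 genes, at position -87, and 14.0% of all windows held it. CTTTGA, the core letters of the TCF/LEF factors of Wnt signalling, were present in *Sall1* alone, at position -153, and 13.8% of all windows held them. These too are shares of windows and not of genes. These matches are descriptions of letters, and binding was not measured.

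The genes differed widely in level. TPM is a level scaled per transcript length and library, and normalized read counts are expected counts scaled to the same library size, which compare 1 gene between groups. *Lhx1* reached 61.2 TPM and *Sall1* 67.0 TPM in their highest libraries, whereas *Pax2* never exceeded 0.37 TPM and *Gdnf* never exceeded 0.62 TPM. In bulk RNA, fewer cells of a type and less RNA per cell cannot be told apart. In the test of any difference over the 9 groups (edgeR quasi-likelihood, adjusted p under 0.05), 9 of 9 genes passed, as did 96.4% of all 20839 genes tested, so that passing says little about these genes.

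**Figure D1:**
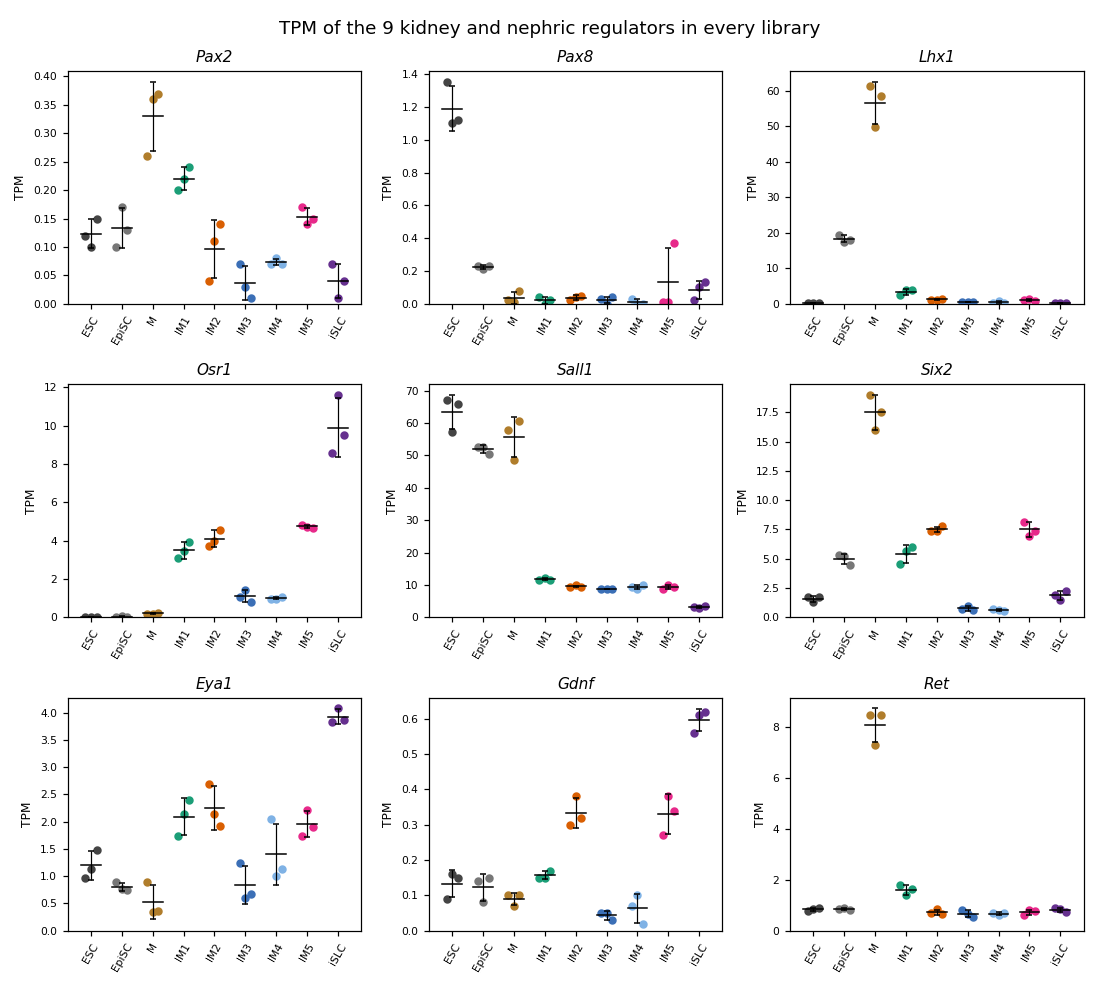
TPM of each of the 9 genes in every library, with the 9 groups on the horizontal axis and TPM on the vertical axis, which starts at 0 and differs between panels. Points are libraries, and bars give the mean and SD of 3. *Lhx1*, *Six2*, *Ret* and *Pax2* are highest in M, *Osr1*, *Eya1* and *Gdnf* in iSLC, and *Sall1* and *Pax8* in ESC.

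*Pax2*, the paired-box factor required for the nephric duct, was low throughout (chromosome 19, 44756045 to 44837871 on GRCm38). Its TPM in the M libraries was 0.26, 0.36 and 0.37, in IM1 0.20, 0.22 and 0.24, and in IM3 0.07, 0.03 and 0.01. The M libraries did not overlap with any other group, and IM1 was next. The IM3 values rest on 7, 2 and 1 rounded counts, close to the floor of 3 counts that was treated as the limit of detection.

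*Pax8*, which acts with *Pax2* (chromosome 2, 24420560 to 24475599), was detected mainly before mesoderm formed. TPM was 1.35, 1.10 and 1.12 in ESC and 0.23, 0.21 and 0.23 in EpiSC. Every library of M, IM1 to IM5 and iSLC held at most 8 counts, and IM5 replicate 3 reached 0.37 TPM on 2 counts because TPM also divides by the transcript length that RSEM assigned, and without it the IM5 mean drops from 0.13 to 0.01 TPM. Exons of the antisense gene *Gm13415* overlap 6.1% of *Pax8* exon bases, and since strand use in counting is not stated, reads of the 2 genes cannot be told apart there. Neither *Pax2* nor *Pax8* reached the mean of 100 normalized reads needed for a call in any comparison.

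*Lhx1*, a LIM homeodomain factor of the organizer and the nephric duct (chromosome 11, 84518284 to 84525535), rose and fell again by large factors. Its TPM was 0.08, 0.15 and 0.15 in ESC, 19.4, 17.5 and 17.9 in EpiSC, and 61.2, 49.8 and 58.6 in M. It then dropped to 2.45, 3.95 and 3.91 in IM1 and to 0.44, 0.44 and 0.45 in IM3. The groups ESC, EpiSC, M, IM1 and IM3 did not overlap.

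For a call, edgeR's Benjamini-Hochberg adjusted p had to be at most 0.01, the fold at least 2, and the normalized read count at least 100, both as the mean of the 27 libraries and as the mean of 1 of the groups set against each other. From ESC to EpiSC, which asks what the epiblast step changes, *Lhx1* rose by 7.35 on the log2 scale (standard error 0.26, adjusted p 1.81e-18) and *Six2* by 1.73 (adjusted p 1.43e-10). These 2 of 9 genes compare with 3.75% of all genes called higher and 4.32% called lower, and no member was called lower. *Sall1* and *Eya1* had log2 differences of -0.25 (adjusted p 0.000132) and -0.66 (adjusted p 9.23e-05), under the fold limit. *Pax8* had one of -1.69 (adjusted p 0.00124), below the count minimum.

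From EpiSC to M, the mesoderm step, *Lhx1* rose by 1.57 (adjusted p 2.00e-10), *Six2* by 1.74 (adjusted p 2.48e-12) and *Ret* by 3.21 on the log2 scale (standard error 0.11, adjusted p 4.49e-19). These 3 of 9 genes compare with 6.79% of all genes called higher and 7.72% called lower, and none of the 9 was called lower. *Eya1* had a log2 difference of -0.89 (adjusted p 6.04e-06), under the fold limit. Below the count minimum were *Pax8* at -3.12 (adjusted p 7.11e-05), *Osr1* at 2.47 (adjusted p 6.59e-05) and *Pax2* at 1.13 (adjusted p 0.00284). The size for *Pax8* depends on 2, 1 and 3 counts in M, and that for *Osr1* on 1, 5 and 2 counts in EpiSC. These counts lie mostly at or below the floor of 3, so neither size is well determined. *Sall1* had a log2 difference of 0.04 (adjusted p 0.543), at 52.5, 52.6 and 50.4 TPM in EpiSC and 57.8, 48.6 and 60.6 TPM in M.

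*Ret*, the GDNF receptor (chromosome 6, 118151745 to 118197718), showed a sharp peak in M. TPM was 0.87, 0.90 and 0.80 in EpiSC, 8.47, 7.31 and 8.46 in M, and 1.78, 1.40 and 1.64 in IM1. The ranges in ESC, EpiSC, IM2, IM3, IM4, IM5 and iSLC all lay between 0.56 and 0.91 TPM and overlapped one another in part. The GFRA co-receptor *Gfra1*, through which RET binds GDNF, was lowest in M, with means of 0.03 TPM there, 12.1 TPM in IM3 and 27.3 TPM in IM2. *Gfra2*, another GFRA gene, was not lowest in M, with means of 0.42 TPM in EpiSC, 1.56 TPM in M and 7.47 TPM in IM3.

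In every IM medium, 4 of the 9 genes were called lower than in M. *Lhx1*, *Sall1*, *Six2* and *Ret* were called lower in IM1, IM2, IM3, IM4 and IM5, which share the M libraries as controls. The log2 fold change of *Lhx1* was -4.20 in IM1, -5.73 in IM2, -7.19 in IM3, -6.99 in IM4 and -5.83 in IM5. *Sall1*, a zinc-finger factor of pluripotent cells and of kidney mesenchyme (chromosome 8, 89027235 to 89044162), had log2 fold changes of -2.34 in IM1 to -2.85 in IM3, all called. *Six2*, whose exons are 62.3% GC, had -1.78 in IM1, -1.37 in IM2, -4.69 in IM3, -4.94 in IM4 and -1.31 in IM5, and an offset for GC content moved the IM1, IM2 and IM5 values to -2.43, -1.99 and -2.08. The TPM of *Sall1* in ESC was 67.0, 57.3 and 65.9, in IM1 11.6, 12.2 and 11.5, and in IM3 8.77, 8.84 and 8.63.

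*Osr1*, the zinc-finger factor of early intermediate and lateral mesoderm (chromosome 12, 9570116 to 9581500), rose over the same step. TPM was 0.19, 0.18 and 0.23 in M, 3.07, 3.46 and 3.94 in IM1 and 1.08, 1.44 and 0.80 in IM3. *Osr1* rose by 4.03 in IM1, 4.20 in IM2 and 4.47 in IM5 on the log2 scale (adjusted p at most 1.58e-14). In IM3 and IM4 the log2 differences were 2.27 (adjusted p 3.30e-08) and 2.14 (adjusted p 8.24e-08), but none of these libraries reached 100 normalized reads.

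*Eya1*, a phosphatase and co-activator that partners homeodomain factors (chromosome 1, 14168954 to 14310235), was called higher than in M in IM1, IM2, IM4 and IM5. Its normalized read counts were 59.5, 57.1 and 46.2 in M, 200.4, 212.5 and 215.4 in IM1 and 99.7, 81.8 and 97.3 in IM3. The log2 rise was 1.95 in IM1, 2.10 in IM2, 1.17 in IM4 and 2.02 in IM5, and the log2 difference in IM3 was 0.78 (adjusted p 6.22e-05), under the fold limit. Read counts are used for *Eya1* because its TPM moved with the assigned length: M replicate 1 had 0.89 TPM at an effective length of 1737.32 bases, against 0.34 TPM at 4038.32 bases in replicate 2, with 54 and 48 counts, and without replicate 1 the M mean drops from 0.533 to 0.355 TPM.

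Against M, the shares of all genes called higher were 9.72% in IM1, 10.4% in IM2, 9.26% in IM3, 9.01% in IM4 and 10.2% in IM5. The shares called lower were 5.94% in IM1, 6.10% in IM2, 5.66% in IM3, 5.76% in IM4 and 5.84% in IM5, beside 4 of the 9 genes in each medium. Below the count minimum, *Pax2* had log2 differences from M of -1.74 in IM2, -3.12 in IM3, -2.11 in IM4 and -1.26 in IM5 (adjusted p at most 0.00116). In IM1 it had -0.57 (adjusted p 0.1005). *Gdnf*, also below it, had 1.70 in IM2 and 1.73 in IM5 (adjusted p at most 4.69e-05). In IM1, IM3 and IM4 *Gdnf* had 0.64, -1.285 and -0.64 (adjusted p at least 0.0152).

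**Figure D2:**
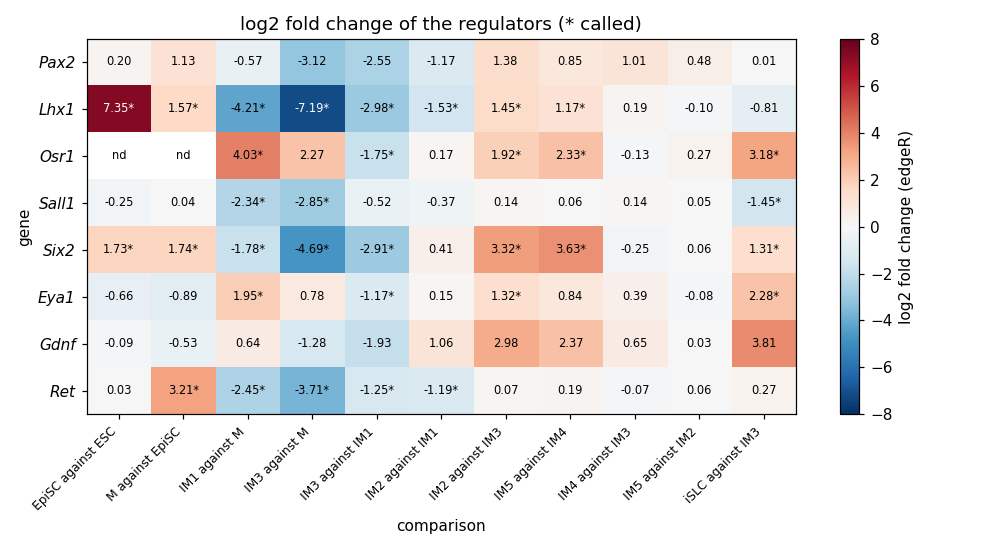
Log2 fold change of 8 of the genes (rows) in 11 comparisons (columns), from the edgeR fit. An asterisk marks a call, nd marks cells where a group averaged at most 3 counts, and *Pax8* is left out because no library held more than 8 of its counts from M onwards. *Six2* runs from -4.69 in IM3 against M to 3.63 in IM5 against IM4.

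The comparison of IM3 with IM1 asks what RA adds to bFGF and BMP. Of the 9 genes, 5 were called lower and none higher, against 3.72% of all genes called lower and 2.62% called higher. *Six2*, the homeodomain factor that maintains nephron progenitors (chromosome 17, 85684277 to 85688274), had normalized read counts of 320.8, 393.2 and 420.9 in IM1 and 47.2, 65.4 and 39.2 in IM3, with no overlap. *Six2* fell by 2.91 on the log2 scale (standard error 0.17, adjusted p 1.20e-13).

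*Lhx1* fell by 2.98 (adjusted p 6.28e-11), *Osr1* by 1.75 (adjusted p 8.53e-09), *Ret* by 1.25 (adjusted p 2.05e-09) and *Eya1* by 1.17 on the log2 scale (adjusted p 3.03e-08). *Gdnf*, the secreted ligand of RET (chromosome 15, 7810846 to 7837575), had normalized read counts of 17.6, 17.7 and 19.9 in IM1 and 5.25, 5.95 and 2.91 in IM3, a log2 difference of -1.93 (adjusted p 0.000336) below the count needed for a call. *Sall1* had a log2 difference of -0.52 (adjusted p 1.08e-08), under the fold limit. *Pax2* had one of -2.55 (adjusted p 1.08e-05), below the count minimum, and its size depends on the 7, 2 and 1 counts in IM3.

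IM2 against IM1 gives the effect of RA and Activin A together. It called 2 of the 9 lower, *Lhx1* by 1.53 (adjusted p 3.07e-07) and *Ret* by 1.19 on the log2 scale (adjusted p 5.63e-09), and none higher, against 1.56% of all genes lower and 1.94% higher. *Osr1* had a log2 difference of 0.17 (adjusted p 0.456), *Eya1* of 0.15 (adjusted p 0.362) and *Six2* of 0.41 (adjusted p 0.0131), none past the threshold. *Gdnf* had a log2 difference of 1.06 (adjusted p 0.00616) on normalized read counts of 34.3, 43.5 and 37.5 in IM2. *Pax2* had one of -1.17 (adjusted p 0.00835). *Gdnf* and *Pax2* were both below the count minimum.

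The effect of Activin A itself was tested in IM2 against IM3, without CHIR99021. *Six2* had normalized read counts of 490.2, 495.8 and 524.9 in IM2, and rose by 3.32 on the log2 scale over IM3 (standard error 0.17, adjusted p 2.93e-14). *Osr1* counts were 230.9, 252.6 and 291.3 in IM2 against 66.1, 89.2 and 49.4 in IM3, a rise of 1.92 (adjusted p 3.47e-09). No IM2 library of either gene overlapped with IM3.

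*Eya1* rose by 1.32 (adjusted p 7.70e-09) and *Lhx1* by 1.45 on the log2 scale (adjusted p 0.000135), with *Lhx1* at 120.4, 142.8 and 150.0 normalized reads in IM2 and 48.3, 46.1 and 56.7 in IM3. These 4 of 9 genes compare with 2.46% of all genes called higher, and none was called lower against 1.34%. *Gdnf* had a log2 difference of 2.98 (adjusted p 7.25e-07), on 35, 42 and 39 rounded counts in IM2 against 5, 4 and 2 in IM3. *Ret* had a log2 difference of 0.07 (adjusted p 0.720).

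With CHIR99021 in both media, IM5 against IM4, 3 of the 9 genes were called higher and none lower, against 2.63% and 1.46% of all genes. *Six2* rose by 3.63 (adjusted p 3.27e-15), *Osr1* by 2.33 (adjusted p 6.14e-11) and *Lhx1* by 1.17 on the log2 scale (adjusted p 0.000556). The GC offset gave 3.04 for *Six2*. Its counts were 605.5, 465.3 and 505.7 in IM5 and 48.4, 43.4 and 35.3 in IM4. *Eya1* had a log2 difference of 0.84 (adjusted p 3.67e-06), under the fold limit, and *Gdnf* one of 2.37 (adjusted p 2.95e-06), below the count minimum.

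**Figure D3:**
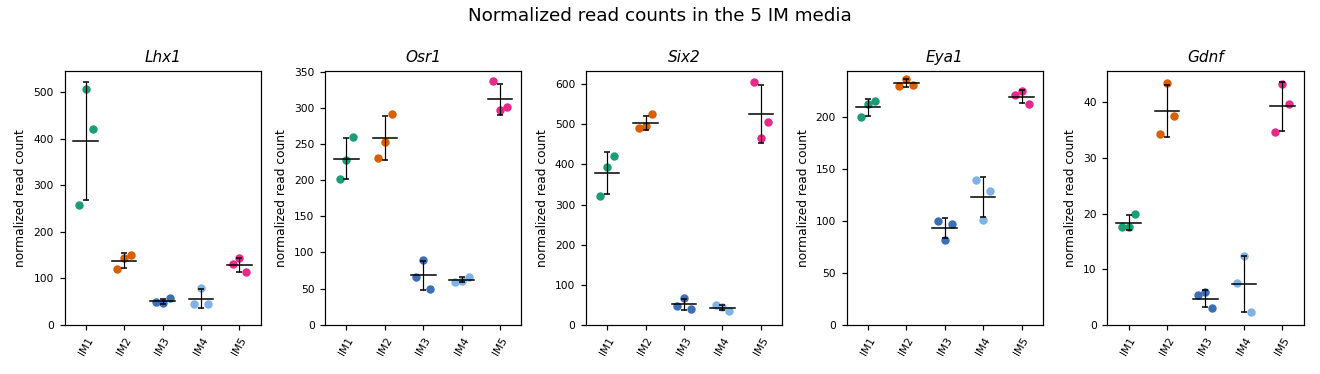
Normalized read counts (vertical axis, from 0) of *Lhx1*, *Osr1*, *Six2*, *Eya1* and *Gdnf* in the 3 libraries of each IM medium. Points are libraries, and bars give the mean and SD. *Osr1*, *Six2* and *Gdnf* are lowest in IM3 and IM4, and *Lhx1* is highest in IM1.

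None of the 9 genes was called on adding CHIR99021. In IM4 against IM3 no member was called, against 0% of all genes higher and 0.101% lower, and 2 members had an unadjusted p under 0.05 in edgeR. They were *Eya1*, with a log2 difference of 0.39 (95% interval 0.10 to 0.67, adjusted p 0.188), and *Sall1*, with 0.14 (0.02 to 0.25, adjusted p 0.293). The interval for *Six2* was -0.72 to 0.22 and for *Osr1* -0.56 to 0.30. *Pax2*, *Pax8*, *Lhx1*, *Osr1*, *Six2* and *Gdnf* averaged under 100 normalized reads in both IM3 and IM4. The absence of a call for these genes was therefore fixed by the count minimum, and only their intervals describe the effect.

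In IM5 against IM2 no member was called, against 0.0432% of all genes higher and 0.192% lower, and none had an unadjusted p under 0.05. The interval for *Six2* was -0.20 to 0.32, for *Osr1* -0.05 to 0.59 and for *Sall1* -0.06 to 0.16. The interaction of Activin A and CHIR99021, which asks whether the Activin A effect differed with CHIR99021, gave no call among the 9, against 0.0096% of all genes higher and 0.0240% lower. Only *Eya1* had an unadjusted p under 0.05 (log2 -0.47, interval -0.85 to -0.10, adjusted p 0.339). DESeq2 and limma, under the same minimum of 100 normalized reads, also called 0 of 9 in these 3 comparisons. Without that minimum, edgeR called no member in any of them.

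**Figure D4:**
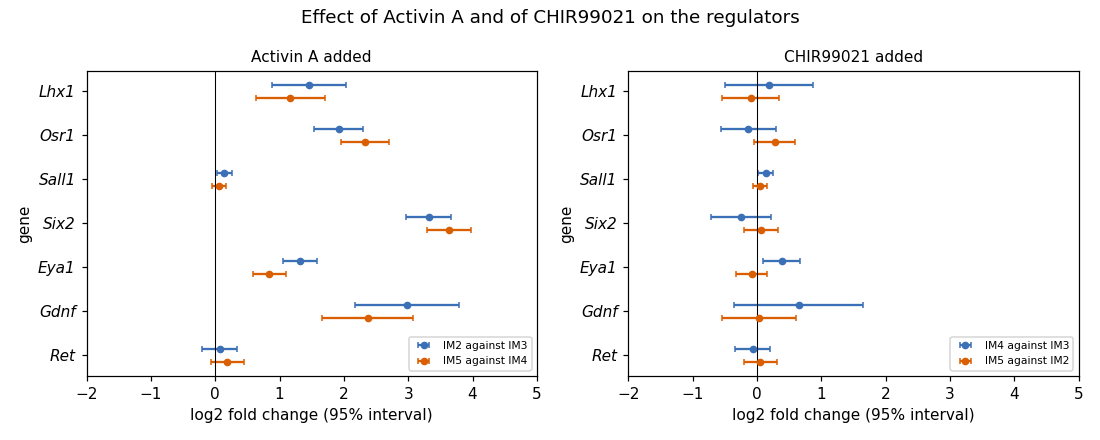
Log2 fold changes with 95% intervals from edgeR for 7 genes (vertical axis; *Pax2* and *Pax8* are left out for their low counts), on adding Activin A (left, IM2 against IM3 and IM5 against IM4) or CHIR99021 (right, IM4 against IM3 and IM5 against IM2). *Six2* and *Gdnf* lie farthest from 0 on the left, and most intervals on the right include 0.

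The media also differed in signals outside these genes. The sum of 6 red blood cell genes was 21.3 to 74.4 TPM in IM3 and 30.8 to 72.1 TPM in IM4, and 11.7 to 91.0 TPM in the M and ESC libraries. It was at most 4.54 TPM in every library of EpiSC, IM1, IM2, IM5 and iSLC. The median log2 deviation from the mean of all libraries, taken over the top quartile of genes by GC content minus the bottom quartile, was -0.419 to -0.084 in IM3 and IM4 and -0.102 to 0.423 in IM1, IM2 and IM5, where 1 IM2 library lay within the first range. The labels name no batch, and the red blood cell division and the groups cannot be told apart in IM3 against IM1, IM2 against IM3 and IM5 against IM4. The same holds for EpiSC against ESC, M against EpiSC, IM1, IM2 and IM5 against M, and iSLC against IM3. With an offset for GC content, the same members were called in every comparison except iSLC against IM3. The summed levels of 4 paraxial mesoderm markers were 73.6 to 91.3 TPM in IM2, 23.0 to 26.7 TPM in IM3 and 12.8 to 17.0 TPM in IM1. Those of 5 genital ridge markers were 177 to 182 TPM in IM2, 495 to 533 TPM in IM3 and 80.5 to 91.3 TPM in IM1. Those of 5 lateral plate and heart markers were 267 to 279 TPM in IM2, 163 to 177 TPM in IM3 and 433.5 to 444 TPM in IM1, and those of 3 endothelial markers 60.3 to 64.1 TPM, 36.6 to 44.9 TPM and 103 to 113 TPM. Their part in the differences between media was not tested.

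Other kidney genes moved in both directions under RA, where 2.62% of all genes were called higher and 3.72% lower. Against IM1, IM3 had 2 of 15 tested metanephric mesenchyme genes called higher and 4 lower, with a median log2 difference of -0.42 beside 0 for all genes. *Wt1*, a zinc-finger factor of kidney and gonad, rose by 4.41, whereas *Hoxa11* fell by 3.18 and *Hoxd11*, its partner in kidney patterning, fell by 2.29. Of 7 renal stroma genes, 4 were called higher and 1 lower (median 2.23), led by *Tcf21* at 4.91 and *Meis1* at 3.03. Several of these genes are also genital ridge or general mesoderm genes.

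In IM3 against IM1, 2.62% of all genes were called higher and 3.72% lower. Of 11 nephric duct genes tested there, 2 were called higher and 1 lower (median -0.76). They were *Wnt11* at 1.17, *Sox8* at 1.16 and the epithelial cadherin *Cdh1* at -1.63. Of 16 genes of GDNF-RET signalling none was called higher and 2 lower (median 0.03), *Foxc1* at -2.34 and the RET ligand *Artn* at -1.53. Of 18 nephron differentiation genes 1 was called higher and 5 lower (median -0.53), among them *Lef1* at -1.19. Among 13 paralogs of the 9 genes none was higher and 3 were lower (median -1.35), with *Sall3* at -4.11, *Eya4* at -2.11 and *Sall4* at -1.57.

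With Activin A, IM2 against IM3, where 2.46% of all genes were called higher and 1.34% lower, 4 of 15 mesenchyme genes were called higher and 2 lower (median 0.71). *Hoxd11* rose by 2.04, *Hoxa11* by 1.89 and *Meox1*, a paraxial mesoderm factor, by 1.76, and *Wt1* fell by 2.22. Of the GDNF-RET genes 3 of 16 were called higher and none lower (median 0.20), namely *Foxc2* at 1.80, *Gfra1* at 1.04 and *Foxc1*. Of the renal stroma genes 1 of 7 was higher and 3 lower (median -0.59), with the RA-producing enzyme *Aldh1a2* at -2.89 and *Tbx18* at -2.29. *Npnt*, at 1.18, was the 1 of 11 duct genes called. Nephron differentiation genes gave 1 of 18 higher, *Lef1* at 1.58, and 1 lower, the endocytic receptor *Lrp2* at -1.76 (median 0.34), and paralogs 2 of 13 higher, *Sall3* at 2.43 and *Eya4* at 1.51 (median 0.44).

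Genes of the nephron differentiation list were unequal in level, and those named here were chosen after their values were seen. *Umod*, of the thick ascending limb, did not exceed 0.01 TPM and *Slc12a1*, its salt transporter, 0.21 TPM in any library. Others of the list were higher: *Podxl*, a podocyte surface protein that pluripotent and epithelial cells share, had means of 168 TPM in IM1, 388 TPM in IM3 and 20.9 TPM in iSLC, *Hnf4a* had 8.67, 6.91 and 0.437 TPM, and *Nphs1* was 39.3 TPM in ESC but at most 0.68 TPM in any IM library. *Gata3*, a duct factor that other lineages share, had means of 13.6 TPM in IM1, 7.37 TPM in IM3 and 6.79 TPM in iSLC.

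The iSLC comparison with the IM3 parents asks what forced *Nr5a1* and *Dmrt1* changed. Infection, doxycycline, the later medium with its Activin A and the CFP sort changed with them and cannot be told apart. The red blood cell division given above also separates these groups. *Osr1* had its highest level here, with normalized read counts of 534.8, 723.0 and 598.6, and rose by 3.18 on the log2 scale (standard error 0.18, adjusted p 9.32e-15). *Eya1*, at 408.6, 485.3 and 470.1, rose by 2.28 (standard error 0.13, adjusted p 8.25e-15). Neither gene overlapped with IM3 in any library.

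*Sall1*, at 562.4, 514.9 and 587.2 normalized reads against 1496, 1543 and 1518 in IM3, fell by 1.45 on the log2 scale (adjusted p 8.74e-18). *Six2*, at 127.8, 96.7 and 150.4, rose by 1.31 (adjusted p 6.31e-07), but by 0.64 (adjusted p 0.00205) with the GC offset, under the fold limit. With *Six2* included, 3 of the 9 genes were called higher and 1 lower, against 10.3% of all genes higher and 8.92% lower.

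*Gdnf* reached its highest level, at 0.56, 0.61 and 0.62 TPM, on 77, 70 and 75 rounded counts in iSLC. Its log2 difference from IM3 was 3.81 (standard error 0.37, adjusted p 7.74e-10), below the count minimum, and the fitted size depends on the 5, 4 and 2 counts in IM3. *Lhx1* had a log2 difference of -0.81 (adjusted p 0.0512) and *Ret* of 0.27 (adjusted p 0.0578), neither past the threshold.

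The epithelial marker sum of 4 genes, 1757 to 1899 TPM in IM3, was 34.1 to 39.5 TPM in iSLC. The sum of 4 paraxial markers rose from 23.0 to 26.7 TPM to 175 to 187 TPM. Most of that sum in iSLC was *Meox1*, with a mean of 147.9 TPM against 4.12 TPM in IM3. Of the 4 paraxial markers, 2 were called higher. *Meox1* also counts among the mesenchyme genes below. The part of these marker changes in the result was not tested. Over all genes 10.3% were called higher and 8.92% lower. Of 15 mesenchyme genes 4 were called higher and 2 lower (median -0.02), with *Meox1* at 5.20, *Itga8*, an integrin of kidney mesenchyme, at 4.64 and *Bmp7* at -2.91. Of 16 GDNF-RET genes 5 were called higher and none lower (median 0.93), with *Robo2* at 2.98 and its ligand *Slit2* at 2.64, which restrict *Gdnf* expression in the embryo. Of 11 duct genes none was called higher and 4 lower (median -0.68), among them *Cdh1* at -3.15, *Grhl2* at -2.03 and *Npnt* at -1.13.

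In the same comparison, with 10.3% of all genes called higher and 8.92% lower, nephron differentiation genes gave 3 of 18 higher and 6 lower (median -0.33). Among them were *Lef1* at -4.89, *Hnf4a* at -4.42 and *Podxl* at -4.22. Renal stroma gave 1 of 7 higher, *Tcf21* at 1.67, and 1 lower, *Tbx18* at -1.77 (median 0.54), and paralogs 3 of 13 higher and 2 lower (median 0.56), with *Sall4* at -3.54.

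Over the 27 libraries, the genes whose log2 CPM followed each member most closely were ranked by Pearson r among the tested genes with at least 100 normalized reads on average. The points share stages and media, so these values describe the profiles only. *Osr1* was most like *Bmp1* (0.987), *Col5a1* (0.983) and *Timp2* (0.983), which are extracellular matrix genes, and *Sall1* most like *Cecr2* (0.995), *Rasgrp4* (0.991) and *Klk8* (0.988). *Lhx1* was most like *Evx1* (0.954), a homeobox gene of the primitive streak, *Fbxl14* (0.945) and *Pcbp4* (0.940), and *Ret* most like *Cdh4* (0.957), *Polg* (0.951) and *Cmtm6* (0.942). *Eya1* followed *Ank* (0.953), *Ldlrad4* (0.940) and *Cish* (0.937). *Six2* followed *Parp10* (0.911), *Irs4* (0.905) and *Ccnd1* (0.882), and *Gdnf* followed *Ssbp4* (0.914), *Iglon5* (0.899) and *Arntl2* (0.886). *Pax2* followed *Bap1* (0.901), *Sall3* (0.900) and *Nrarp* (0.875), and *Pax8* followed *Gm18336* (0.950), *Aim2* (0.947) and *Khdc3* (0.946).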

How the data were processed

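Bulk RNA-seq of mouse cells was analysed in 9 groups of 3 libraries, grouped and numbered by the sample labels. Libraries were paired-end TruSeq V2. The authors trimmed reads with Cutadapt 1.9.1, aligned them with STAR 2.5.2a to GRCm38 and estimated abundance with RSEM 1.3.0, per the submitters' processing notes. Strand use in counting was not given in the sources used here. The deposited expected counts are RSEM estimates of fragments per gene, without normalization. The deposited TPM values correct them for effective length and give every library the same total, and the deposited FPKM values are scaled per length and library total. FPKM served only as an alternative to TPM. Totals were 35923040 to 84876603 expected counts per library (median 61504816). Values of up to 3 counts per library were treated as below detection, which covers counting error only.

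Names and coordinates came from GENCODE M21 on the same build (99.26% of 48795 genes matched). Expected counts were rounded. After filterByExpr, 20839 genes entered edgeR 4.0.16 (R 4.3.3) with TMM and 1 coefficient per group over all libraries, which therefore share 1 estimate of the spread. Calls used the study's thresholds, namely adjusted p at most 0.01, a minimum fold of 2 and 100 normalized reads. The members and lists were chosen with earlier results of these data known. Of each list, counts are given, and by name up to 4 called genes with the largest log2 fold change whose libraries do not overlap, with paralogs and partners where a member is described. A few genes of the lists count in them but are not reported here by name. For each member, the 3 genes with the highest Pearson r are named. The steps were tested on simulated data. Alternatives were DESeq2 1.42.0, its size factors, limma 3.58.1 on log2(TPM + 1), length and GC offsets, a replicate block, other thresholds, the compared groups alone and leaving out each library. Replicates differed beyond sampling noise (chi-square per degree of freedom at least 3.65), so none was merged.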

Additional observations from a re-analysis of the deposited data

How the results depend on the processing

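Of 50 changes of a member called, 40 kept their direction and call under all 15 alternatives run for each, and none of 750 values reversed. Without the minimum of 100 normalized reads, 6 members were called in M against EpiSC (3 with it), beside 5842 of all 20839 genes. In IM2 against IM1 that setting called 4 members (2 with the minimum), beside 1405 of all genes. Without the fold minimum, 4 were called in EpiSC against ESC (2 with it), beside 7857 of all genes. With limma on log2(TPM + 1), 3 were called in IM3 against IM1 (5 in edgeR), 0 in IM2 against IM1 (2) and 2 in IM2 against IM3 (4), and this scale understates folds of low genes by construction. Over all genes, limma called 918, 466 and 494 in these comparisons. When only the compared groups were fitted, *Lhx1* (log2 1.45 in IM2 against IM3 and 1.18 in IM5 against IM4), *Eya1* in IM4 against M (1.18) and *Six2* in iSLC against IM3 (1.29) lost the call with adjusted p at most 0.00409, since the mean read count is then taken over fewer libraries. Leaving out any library changed no count of members called. Replicate numbers share only a number: the correlation of same-numbered deviations from the group means was -0.118 to 0.126 over all comparisons, and the replicate block changed no count of members called. With the block and the GC offset, *Six2* in iSLC against IM3 was 0.64 (adjusted p 0.00229). *Pax2*, *Pax8* and *Gdnf* are limited by depth, with at most 77 counts in any library.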
